A study of Danio rerio with 9 samples.

Results

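The genes described here are 51 zebrafish genes of DNA replication and S phase, a list that runs from the proteins that mark replication origins to those that copy, pack and supply the new DNA. A gene was taken to be measured where a probe carried an accession of that gene in RefSeq and was well above background on at least 1 array. Of the 51 genes, 45 had a probe and 44 were measured, out of 13083 named genes measured in all. No probe was paired with cdt1, pola1, rfc2, fen1, chaf1b or rrm2, and neither probe of gins1 was above background on any array. The value of a gene, called its log2 level here, is the log2 signal relative to the 75th percentile of its array, averaged over its probes. A level of 0 is therefore the brightness at the 75th percentile of the array, and levels of different genes are not compared, because probes differ in brightness.

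RNA came from whole larvae of the TL strain at 6 dpf (days post fertilization) that had been reared in constant darkness. The genotypes were wild type (WT), a zPer2 zCry1a double KO (DKO) made by TALEN mutation of a Period and a Cryptochrome gene, and a zPer2 zCry1a zCry2a triple KO (TKO), in which zCry2a was additionally disrupted by CRISPR on the DKO background. The lighting was darkness, 3-h light or 12-h light. For DKO larvae the study places sampling at 12 h after light onset, so that larvae given 3-h light had been returned to darkness. There were 9 arrays of 1 colour, 1 for each genotype and lighting, and no condition was measured on a second array. The arrays of a genotype shared a slide, so genotype and slide cannot be told apart, and darkness, 3-h light and 12-h light took the first, second and a later position on every slide, so lighting and position cannot be told apart. How many larvae were pooled for an array is not given in the sources used here.

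DNA is copied once in each cell cycle. The origin recognition complex (ORC) binds DNA, Cdc6 and Cdt1 load the ring of MCM2 to MCM7 around it in G1, and geminin blocks a second loading. Cyclin-dependent and Dbf4-dependent kinases then turn the ring into an active helicase with Cdc45 and GINS, RPA coats the single strands, DNA polymerase alpha with primase starts each strand, and polymerases epsilon and delta extend it on the PCNA clamp, which the RFC complex loads. Transcription of most of these genes rises at the boundary between G1 and S under E2F factors, so their RNA is widely read as a mark of dividing cells. In zebrafish larvae and cell lines the timing of S phase is known to follow the light-dark cycle and the circadian clock, whose negative regulators are the Period and Cryptochrome proteins.

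Between 85.9% and 89.8% of the spots were well above background on each array, and the scaling signal, the 75th percentile, ranged over 547 to 636. Of the 44 genes, 43 had a probe above background on all 9 arrays. The exception was orc5, whose single probe was above background on 5 arrays and on none of the WT arrays, so that its WT levels are only upper bounds. Of the genes that were targeted, per2 read -5.79 on the WT dark array and -5.91 and -5.92 on the DKO and TKO dark arrays, cry1a -0.15, -1.21 and -1.32, and zCry2a (cry3a in RefSeq) -0.29, -0.36 and -1.15. Because small mutations need not remove the RNA, these probes do not check the labels. The TKO dark array stood apart from the others. Against it, 6.08% of features were at least 2-fold lower on the TKO 12-h array, compared with 1.1% and 1.49% for the same comparison in WT and DKO larvae. With and without this array, the 12-h differences are given for orc6, gins2, gins3, rpa3, tyms, dut, dhfr and slbp. These were the called replication genes that stood farthest above the WT and DKO dark arrays on it. Other called genes with their highest reading on it, among them rfc3, rpa2, prim1 and pcna, are given only with it. For genes of other lists the 12-h differences are also given only with it.

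**Figure D1:**
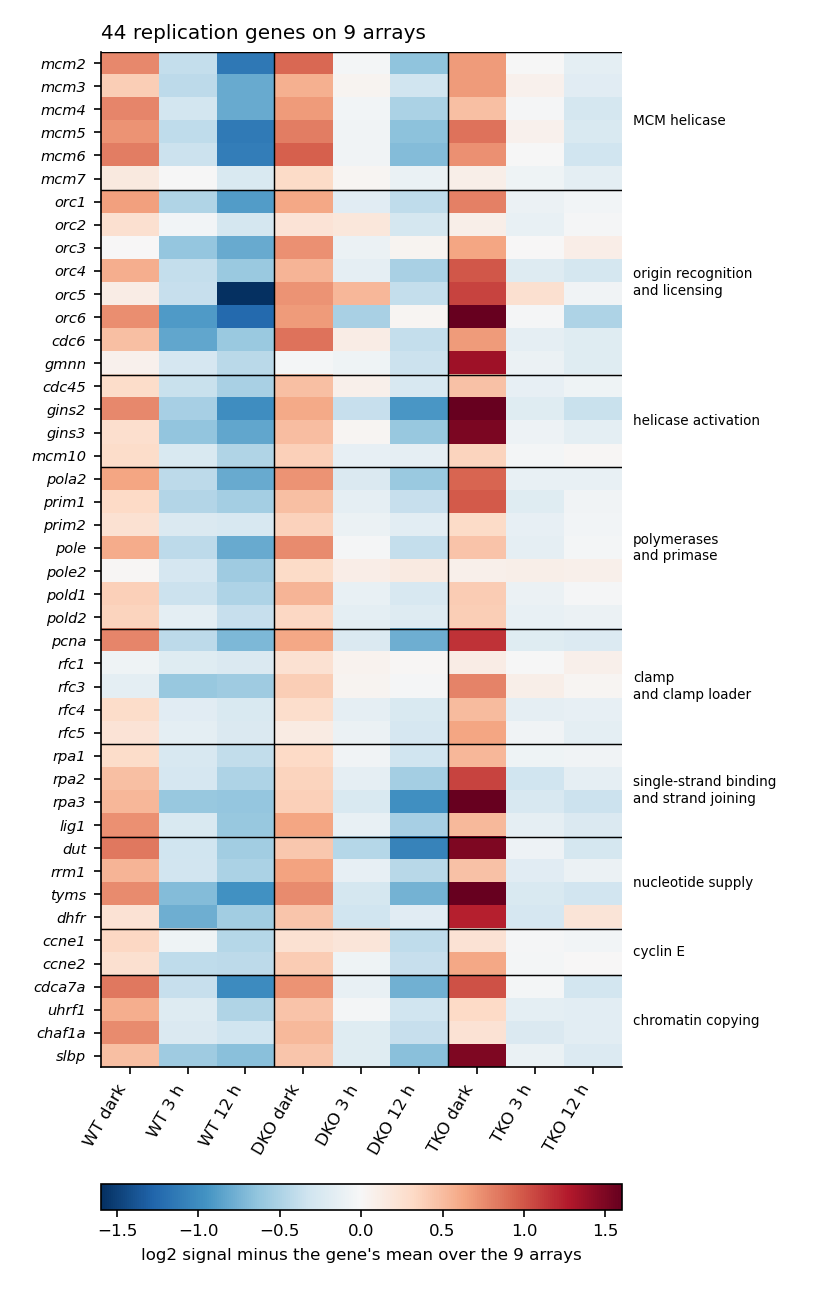
Each row is a replication gene, grouped by role, and each column an array; colour gives the deviation of the log2 level from the mean of that gene over the 9 arrays, and ends at 1.6 in either direction. The dark array of each genotype is red for nearly every gene and the 12-h light array of WT and DKO larvae blue, and the TKO dark array is the darkest red for rpa3, gins2, orc6 and tyms.

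The replication genes were lower after light. In limma's additive model over 3 genotypes, 40 of the 44 genes were lower at 12-h light than in darkness (adjusted p under 0.05 over 28124 features) and none was higher, where 7.43% of all features were called lower. Their median difference was -0.95 on the log2 scale against 0.11 for all features, and the 44 differences ran from -1.89 for gins2 to -0.14 for rfc1. The largest falls were of gins2, tyms, rpa3, orc6, dut, cdca7a, mcm6 and mcm5, which span the helicase, its activators, nucleotide supply and chromatin. Not called were orc2 (-0.38, adjusted p = 0.0709), gmnn (-0.79, adjusted p = 0.0852), pole2 (-0.25, adjusted p = 0.174) and rfc1 (-0.14, adjusted p = 0.203). Among the called genes, orc5 was above background on no WT array, so its call is no support for a fall. Fewer dividing cells in a larva and less of these RNAs in each cell cannot be told apart in RNA from whole larvae.

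At 3-h light 33 of the 44 genes were called lower than in darkness and none higher, where 2.16% of all features were called lower. The median difference was -0.76, with 0.11 for all features, and the range was -1.53 for orc6 to -0.15 for rfc1. Between the lightings themselves the differences were smaller. No gene was called between 12-h and 3-h light, where 0.277% of features were called in either direction. An unadjusted p of 0.05 was passed by 11 of the 44 genes and by 2225 of 28124 features. Of the 44 estimates, 41 were below 0 (median -0.18). On the arrays themselves, all 3 readings at 12-h light lay below all 3 dark readings for 40 of 44 genes (11.5% of features), and all 3 readings at 3-h light lay below them for 39 (9.69%). These orders of arrays, and those given for single genotypes, were counted after values had been seen.

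**Figure D2:**
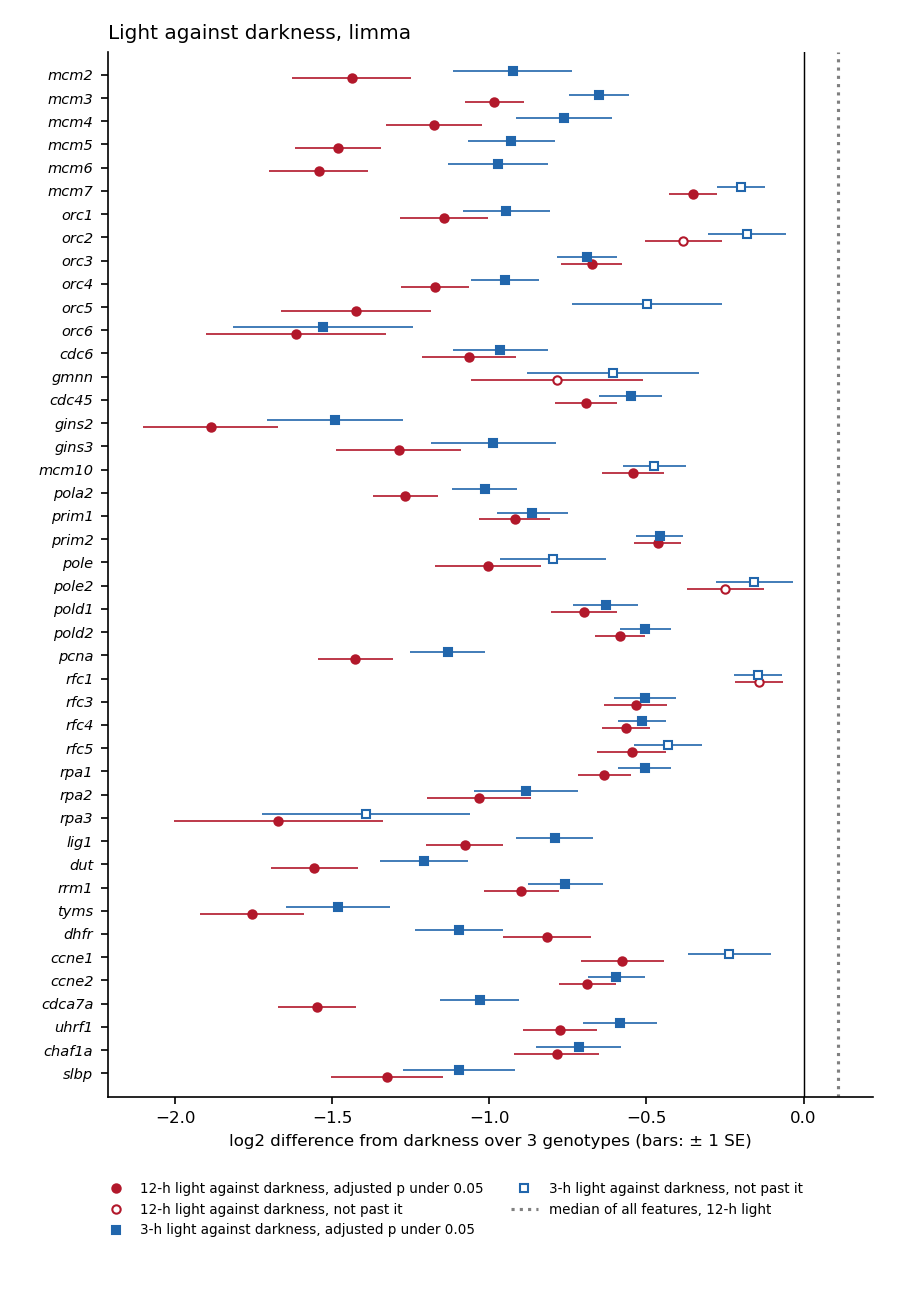
Log2 difference from darkness over the 3 genotypes for each replication gene (points) with 1 standard error (bars), at 12-h light (red circles) and 3-h light (blue squares); filled points passed an adjusted p of 0.05, and the dotted line is the median of all features at 12-h light, 0.11. All 88 points lie left of 0, with gins2 farthest at 12-h light (-1.89) and rfc1 nearest (-0.14).

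The MCM2 to MCM7 ring is the helicase that is loaded at origins and then unwinds them. Levels of mcm2 stood at 1.0, -0.15 and -0.91 on the WT arrays, 1.14, 0.20 and -0.41 on the DKO arrays and 0.91, 0.22 and 0.069 on the TKO arrays (darkness first, then 3-h and then 12-h light, the order used for every gene). Levels of mcm5 stood at -1.33, -2.45 and -3.19 on the WT arrays, -1.23, -2.10 and -2.70 on the DKO arrays and -1.18, -1.98 and -2.30 on the TKO arrays. Levels of mcm6 stood at 0.95, -0.21 and -0.97 on the WT arrays, 1.09, 0.074 and -0.56 on the DKO arrays and 0.87, 0.13 and -0.18 on the TKO arrays. For each of these 3 genes the level stepped down from darkness through 3-h to 12-h light in every genotype, and no lit array overlapped a dark one. Over the genotypes, mcm6 fell by 1.54 ± 0.16 (SE) at 12-h light, 2.92-fold (adjusted p = 0.00456), mcm5 by 1.48 ± 0.14 (SE), 2.79-fold (adjusted p = 0.00405), and mcm2 by 1.44 ± 0.19 (SE), 2.71-fold (adjusted p = 0.00808).

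Levels of mcm3 stood at -2.30, -3.12 and -3.51 on the WT arrays, -2.14, -2.66 and -3.02 on the DKO arrays and -2.03, -2.64 and -2.89 on the TKO arrays. Levels of mcm4 stood at -1.50, -2.57 and -3.09 on the WT arrays, -1.60, -2.32 and -2.79 on the DKO arrays and -1.80, -2.30 and -2.56 on the TKO arrays. Levels of mcm7 stood at 1.48, 1.32 and 1.09 on the WT arrays, 1.64, 1.36 and 1.22 on the DKO arrays and 1.42, 1.25 and 1.17 on the TKO arrays. The first pair of genes stepped down in the same manner, by 1.18 ± 0.15 (SE) for mcm4 (adjusted p = 0.00783) and 0.98 ± 0.095 (SE) for mcm3 (adjusted p = 0.00426). The gene mcm7 also stepped down in each genotype, but over a shorter range, with a difference of -0.35 ± 0.076 (SE) at 12-h light (adjusted p = 0.0269) and -0.20 ± 0.076 (SE) at 3-h light (adjusted p = 0.134). At 3-h light the other 5 MCM genes were called lower, by 0.65 (mcm3) to 0.97 (mcm6). From 3-h to 12-h light the 6 estimates ran from -0.57 (mcm6) to -0.15 (mcm7), the lowest median of the role groups (-0.46), and none was called.

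**Figure D3:**
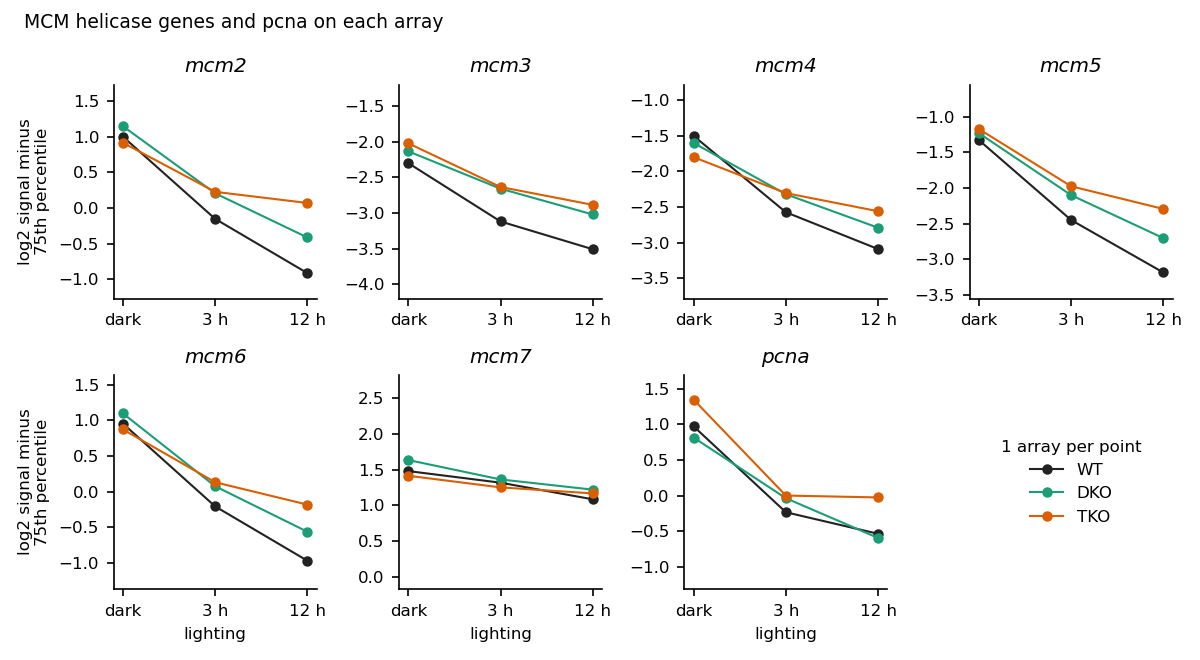
Log2 level (relative to the 75th percentile of each array) of the 6 MCM helicase genes and pcna by lighting, with 1 array per point and a line for each genotype. All panels span 3 log2 units; every line falls from darkness to 12-h light, least for mcm7, and at 12-h light the WT point is the lowest of the 3 genotypes for each MCM gene but not for pcna.

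ORC marks origins, and with Cdc6 it loads the MCM ring. Levels of orc6 stood at -3.77, -5.43 and -5.77 on the WT arrays, -3.84, -5.04 and -4.48 on the DKO arrays and -2.81, -4.54 and -5.01 on the TKO arrays, a fall of 1.62 ± 0.29 (SE) at 12-h light (adjusted p = 0.0163) and of 1.53 ± 0.29 (SE) at 3-h light (adjusted p = 0.0425). One of the 2 orc6 probes was above background on only 4 arrays, and the DKO 12-h reading stood above the DKO 3-h reading. Without the TKO dark array the 12-h difference was -1.42 (adjusted p = 0.0406). The bright probe alone fell by 1.57 at 12-h light (adjusted p = 0.00328). Levels of orc1 stood at -1.63, -2.77 and -3.18 on the WT arrays, -1.67, -2.46 and -2.69 on the DKO arrays and -1.48, -2.38 and -2.33 on the TKO arrays. Over the genotypes orc1 differed at 12-h light by -1.14 ± 0.14 (SE), a 2.21-fold decrease (adjusted p = 0.00677). Levels of orc4 stood at -0.67, -1.63 and -1.85 on the WT arrays, -0.71, -1.40 and -1.77 on the DKO arrays and -0.26, -1.46 and -1.54 on the TKO arrays. Over the genotypes orc4 differed at 12-h light by -1.17 ± 0.11 (SE), a 2.26-fold decrease (adjusted p = 0.0039). Dark readings of these 3 genes lay above every lit reading.

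Levels of cdc6 stood at -3.50, -4.81 and -4.57 on the WT arrays, -3.11, -3.86 and -4.36 on the DKO arrays and -3.29, -4.12 and -4.17 on the TKO arrays, and the fall at 12-h light was 1.07 ± 0.15 (SE) (adjusted p = 0.00936). Its second probe was above background on 1 array, and the first, taken alone, fell by 1.18 (adjusted p = 0.00357). Levels of orc3 stood at -1.58, -2.21 and -2.40 on the WT arrays, -0.87, -1.68 and -1.54 on the DKO arrays and -0.97, -1.59 and -1.49 on the TKO arrays, so that its WT dark reading (-1.58) overlapped the knockouts' readings in light while each genotype fell from its own dark array. Over the genotypes orc3 fell by 0.67 ± 0.10 (SE) (adjusted p = 0.00948). The weak probe of orc5 gave -1.42 (adjusted p = 0.0143), with only the TKO array above background at 12-h light. It was above background on no WT array, so this call is no support for a fall, and its size is not a measured one. Lower but not called were orc2 (-0.38) and gmnn, which encodes geminin. Levels of gmnn stood at -3.21, -3.54 and -3.70 on the WT arrays, -3.30, -3.34 and -3.61 on the DKO arrays and -1.91, -3.37 and -3.46 on the TKO arrays, so that the TKO dark reading alone stood over 1 log2 unit above every other reading.

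Cdc45 and the GINS complex (gins2, gins3) join the MCM ring to make the active helicase, and Mcm10 helps to start it. Levels of gins2 stood at -0.34, -1.64 and -2.10 on the WT arrays, -0.49, -1.48 and -2.04 on the DKO arrays and 0.89, -1.30 and -1.46 on the TKO arrays. It had the largest fall of all 44 genes at 12-h light, a difference of -1.89 ± 0.22 (SE), a 3.7-fold decrease (adjusted p = 0.0057), and fell by 1.49 ± 0.22 (SE) at 3-h light (adjusted p = 0.0269). Levels of gins3 stood at -1.19, -2.09 and -2.29 on the WT arrays, -0.96, -1.43 and -2.06 on the DKO arrays and 0.05, -1.54 and -1.61 on the TKO arrays. Over the genotypes gins3 differed at 12-h light by -1.29 ± 0.20 (SE), a 2.44-fold decrease (adjusted p = 0.0115). Each of these had its highest reading on the TKO dark array, and without that array gins2 fell by 1.60 (adjusted p = 0.00695) and gins3 by 1.05 (adjusted p = 0.0143) at 12-h light. For cdc45 the difference was -0.69 ± 0.10 (SE) (adjusted p = 0.00965). The value for mcm10, -0.54 (adjusted p = 0.018), averaged a pair of probes that disagreed: one fell by 1.17 (adjusted p = 0.00313) and the other gave 0.088 (adjusted p = 0.573), so the fall of mcm10 depends on which probe is read.

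Among the polymerases, pola2 (the B subunit of polymerase alpha) and the primase subunits prim1 and prim2 start strands, pole and pole2 belong to polymerase epsilon, and pold1 and pold2 to polymerase delta. Levels of pola2 stood at -0.32, -1.38 and -1.76 on the WT arrays, -0.24, -1.18 and -1.55 on the DKO arrays and -0.026, -1.08 and -1.08 on the TKO arrays. Over the genotypes pola2 differed at 12-h light by -1.27 ± 0.10 (SE), a 2.41-fold decrease (adjusted p = 0.0033). Levels of prim1 stood at 0.36, -0.43 and -0.51 on the WT arrays, 0.52, -0.10 and -0.33 on the DKO arrays and 1.02, -0.15 and -0.023 on the TKO arrays. Over the genotypes prim1 differed at 12-h light by -0.92 ± 0.11 (SE), a 1.89-fold decrease (adjusted p = 0.00688). Dark and lit readings of pola2 and prim1 did not overlap. The other called falls were of pole (-1.0, adjusted p = 0.0142), pold1 (-0.70, adjusted p = 0.0105), pold2 (-0.58, adjusted p = 0.00916) and prim2 (-0.46, adjusted p = 0.0129). The exception was pole2, whose 3 probes disagreed, with -0.50 (adjusted p = 0.0176), -0.45 (adjusted p = 0.0582) and 0.21 (adjusted p = 0.317) at 12-h light.

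PCNA is the sliding clamp that keeps polymerases on DNA. Levels of pcna stood at 0.97, -0.23 and -0.53 on the WT arrays, 0.82, -0.034 and -0.59 on the DKO arrays and 1.35, 0.0032 and -0.023 on the TKO arrays, and no lit reading reached a dark one. It fell by 1.43 ± 0.12 (SE) at 12-h light, 2.69-fold (adjusted p = 0.0033), and by 1.13 ± 0.12 (SE) at 3-h light, 2.19-fold (adjusted p = 0.0197). The RFC genes, whose products load the clamp, had smaller differences. Those for rfc3, rfc4 and rfc5 differed by -0.53, -0.57 and -0.55 at 12-h light (adjusted p = 0.0183, 0.0088 and 0.0222). The large subunit rfc1 stayed within -1.34 to -0.87 on all 9 arrays.

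RPA (rpa1, rpa2, rpa3) coats single-stranded DNA, and lig1 seals the fragments of the lagging strand. Levels of rpa3 stood at 1.09, -0.048 and -0.06 on the WT arrays, 0.95, 0.32 and -0.42 on the DKO arrays and 2.72, 0.31 and 0.22 on the TKO arrays. The TKO dark reading was 1.63 above that of WT, and the difference at 12-h light, -1.67 ± 0.33 (SE) (adjusted p = 0.0221), became -1.21 (adjusted p = 0.016) without that array. Levels of lig1 stood at -1.36, -2.34 and -2.69 on the WT arrays, -1.46, -2.21 and -2.63 on the DKO arrays and -1.58, -2.23 and -2.32 on the TKO arrays. Over the genotypes lig1 differed at 12-h light by -1.08 ± 0.12 (SE), a 2.11-fold decrease (adjusted p = 0.00569), with no overlap between dark and lit arrays. For rpa2 and rpa1 the falls were 1.03 (adjusted p = 0.0128) and 0.63 (adjusted p = 0.00834).

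Nucleotide supply is represented by thymidylate synthase (tyms), dihydrofolate reductase (dhfr), the dUTPase dut, which clears dUTP, and the large subunit of ribonucleotide reductase (rrm1). Levels of tyms stood at -0.14, -1.59 and -1.86 on the WT arrays, -0.14, -1.18 and -1.65 on the DKO arrays and 0.83, -1.14 and -1.21 on the TKO arrays. Levels of dut stood at 1.12, -0.043 and -0.28 on the WT arrays, 0.71, -0.18 and -0.79 on the DKO arrays and 1.77, 0.19 and -0.0061 on the TKO arrays. Every dark reading of these 2 genes was above every lit reading. At 12-h light the gene tyms fell by 1.76 ± 0.17 (SE), 3.38-fold (adjusted p = 0.00416), and dut by 1.56 ± 0.14 (SE), 2.94-fold (adjusted p = 0.00373). Leaving out the TKO dark array gave -1.56 (adjusted p = 0.00709) and -1.41 (adjusted p = 0.00709). Levels of dhfr stood at -0.87, -1.88 and -1.65 on the WT arrays, -0.66, -1.42 and -1.28 on the DKO arrays and 0.15, -1.36 and -0.90 on the TKO arrays. With the TKO dark array left out, dhfr gave -0.66 (adjusted p = 0.0177) at 12-h light. Unlike the other 3, dhfr was nearer to its dark level at 12-h than at 3-h light in each genotype, with -0.82 ± 0.14 (SE) at 12-h light (adjusted p = 0.015), -1.10 ± 0.14 (SE) at 3-h light (adjusted p = 0.0223) and a difference between the lightings that was not called (0.28, adjusted p = 0.727). The gene rrm1 fell by 0.90 ± 0.12 (SE) (adjusted p = 0.00818). The listed small subunit rrm2 is a synonym of both rrm2l and rrm2b in RefSeq and was not counted. The probed gene rrm2l fell by 1.16 ± 0.13 (SE) at 12-h light (adjusted p = 0.00512).

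Cyclin E, the activator of Cdk2 at the start of S phase, is encoded by ccne1 and ccne2. They were lower at 12-h light by 0.58 (adjusted p = 0.0312) and 0.69 (adjusted p = 0.0079), and at 3-h light only ccne2 passed the threshold (-0.60, adjusted p = 0.0283, with -0.24, adjusted p = 0.243 for ccne1). The genes that restore chromatin behind the fork fell together, 4 of 4. Levels of cdca7a stood at 1.73, 0.53 and -0.12 on the WT arrays, 1.61, 0.77 and 0.12 on the DKO arrays and 1.91, 0.85 and 0.60 on the TKO arrays, a fall of 1.55 ± 0.12 (SE), 2.93-fold (adjusted p = 0.00319), and Cdca7 is known in other vertebrates as the partner of the remodeller Hells. Levels of slbp stood at 0.23, -0.81 and -0.91 on the WT arrays, 0.21, -0.43 and -0.91 on the DKO arrays and 1.25, -0.35 and -0.46 on the TKO arrays. Over the genotypes slbp differed at 12-h light by -1.33 ± 0.18 (SE), a 2.51-fold decrease (adjusted p = 0.0085). Its product binds the stem-loop of histone messages, and its difference without the TKO dark array was -1.10 (adjusted p = 0.00943). The maintenance-methylation factor uhrf1 (-0.77, adjusted p = 0.0111) and the histone chaperone subunit chaf1a (-0.79, adjusted p = 0.0152) fell less. Of 4 uhrf1 probes, 1 gave -0.08 and was not called (adjusted p = 0.556), while the other 3 gave -1.13 to -0.93.

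The calls rest on 9 arrays with 4 residual degrees of freedom. Leaving out 1 array in turn left 13 (without the DKO 12-h array) to 41 (without the TKO dark array) genes called lower at 12-h light, with 28 without the WT 12-h array and 32 without the WT dark or the TKO 12-h array, and all 44 differences stayed below 0 in the 9 fits. Over all features, 707, 6467, 1779, 2197 and 1371 were called in either direction in the same order, against 5697 with all arrays. Without the TKO dark array the medians at 12-h and 3-h light were -0.98 and -0.75. The 12 genes called in every one of these fits were mcm3, mcm5, mcm6, orc1, orc4, gins2, pola2, pcna, lig1, dut, tyms and cdca7a. The fit without the DKO 12-h array, with its 13 calls, limits this number. No share of all features called in every fit is given, so the 12 cannot be set against one. At 3-h light the count was less stable. It fell to 0 without the WT dark, WT 3-h, DKO dark, DKO 3-h, DKO 12-h or TKO 3-h array, to 4 without the WT 12-h array and to 13 without the TKO 12-h array, and was 32 without the TKO dark array. In the fits with no call, between 0 and 13 of all features were called, and 37 or 38 of the 44 genes had an unadjusted p under 0.05. Without the WT 12-h, TKO 12-h and TKO dark arrays, 138, 279 and 1804 of all features were called. With all 9 arrays, 38 of the 44 genes and 9125 of 28124 features had such a p.

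Each genotype showed the fall. Against the dark array of its own genotype, 23 of 43 genes were at least 2-fold lower on the WT 12-h array (1.1% of features), 20 of 44 on the DKO 12-h array (1.49%) and 19 of 44 on the TKO 12-h array (6.08%). The largest were mcm6, mcm2, mcm5, cdca7a and gins2 in WT larvae (3.79-fold for mcm6), mcm6, mcm2, gins2, tyms and dut in DKO larvae (3.15-fold for mcm6) and rpa3, gins2, tyms, dut and orc6 in TKO larvae (5.66-fold for rpa3). At 3-h light 16 of 43 genes were at least 2-fold lower in WT larvae (0.769%), 2 of 44, tyms and mcm6, in DKO larvae (0.378%) and 15 of 44 in TKO larvae (5.37%). No replication gene was at least 2-fold higher on any lit array than on its dark array, where 0.477% to 2.13% of features were. These counts of 0 lie near the shares of all features. With the DKO dark array in place of the TKO one, 6 genes in place of 19 were at least 2-fold lower on the TKO 12-h array, and 0 in place of 15 on the TKO 3-h array. This exchange also crosses genotype and slide. No share over all features is given for it, so its counts cannot be set against one. These single arrays have no replicate check, and spots of the same probe gave an SD of 0.20 for the log2 ratio of a pair of arrays.

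The steps with lighting were also read on the single arrays of each genotype. The order of darkness above 3-h light above 12-h light held for 41 of 44 genes in WT larvae (16.3% of features), 40 in DKO larvae (23.6%) and 25 in TKO larvae (20.1%). The mean deviation of the 44 genes from their own averages was 0.44, -0.38 and -0.65 on the WT arrays, 0.51, -0.087 and -0.41 on the DKO arrays, and 0.80, -0.09 and -0.13 on the TKO arrays. Whether the step from 3-h to 12-h light differed between genotypes was not tested. An interaction model, in which both lit arrays of a genotype stand together, tested for a light response that differs by genotype. None of the 44 genes was called for DKO minus WT, TKO minus WT or TKO minus DKO, where 0%, 0% and 0% of features were called. In the same order, 0, 3 and 5 of the 44 passed an unadjusted p of 0.05. Over all features 1079 of 28123, 6549 of 28123 and 7067 of 28122 did, each a larger share than among the 44 genes. By that p the leading genes were gmnn, with -1.09 ± 0.22 (SE) for TKO minus WT (adjusted p = 0.104) and -1.33 ± 0.22 (SE) for TKO minus DKO (adjusted p = 0.0955), and rpa3, -1.31 ± 0.42 (SE) and -1.45 ± 0.42 (SE) (adjusted p = 0.165 and 0.137). Both TKO responses rest on the TKO dark array and could not be fitted without it.

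The medians of the differences between genotypes, 0.16 for DKO and 0.36 for TKO against WT, were smaller in size than those between light and darkness. In the additive model 3 of 44 genes were higher in DKO than in WT larvae, where 8.1% of features were called higher, a share near that of the genes. They were orc3, rfc3 and orc5, the last of which had passed the filter on dim signals only through knockout arrays, so that its call is no support for a difference. The gene orc3 differed by 0.70 ± 0.10 (SE), a 1.62-fold increase (adjusted p = 0.00655), and rfc3 by 0.58 ± 0.10 (SE), a 1.5-fold increase (adjusted p = 0.0145). The measured difference of orc5 was 1.01 (adjusted p = 0.0445), from a probe above background on 2 of the 3 DKO arrays and on no WT array. With normexp and quantile normalization, however, the orc5 difference was 0.02 (adjusted p = 0.812). The level of orc3 was -0.87, -1.68 and -1.54 on the DKO arrays, each above the WT array of the same lighting. Only 1 of the 2 rfc3 probes differed, by 1.03 (adjusted p = 0.00138), and the other gave 0.13 (adjusted p = 0.475).

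In TKO against WT larvae 12 of 44 genes were called higher and none lower, where 9.06% of features were called higher. The median over the 44 genes was 0.36, with -0.057 for all features, and 42 of 44 estimates were above 0. One of the 12 was orc5, whose call follows from the filter as in DKO larvae. Its probe was above background on all 3 TKO arrays, and its measured difference was 1.15 (adjusted p = 0.0231). Against the floor for dim signals, the lower bound on the TKO mean over WT was 1.52-fold, which was not tested. Because orc5 passed the filter only through knockout arrays, this bound is no support for a difference. Among origin and activation genes, gins3 differed by 0.82 ± 0.20 (SE), a 1.77-fold increase (adjusted p = 0.0345), and orc3 by 0.72 ± 0.10 (SE), a 1.64-fold increase (adjusted p = 0.00585). The clamp loader gene rfc3 differed by 0.75 ± 0.10 (SE), a 1.68-fold increase (adjusted p = 0.00549), and the helicase gene mcm5 by 0.51 ± 0.14 (SE), a 1.42-fold increase (adjusted p = 0.047). In nucleotide supply the differences were 0.76 ± 0.14 (SE) for dhfr (adjusted p = 0.0158) and 0.69 ± 0.17 (SE) for tyms (adjusted p = 0.0338), and slbp gave 0.65 ± 0.18 (SE) (adjusted p = 0.0486). Without the TKO dark array these became 0.58 (adjusted p = 0.0494) for gins3, 0.60 (adjusted p = 0.0201) for dhfr, 0.50 (adjusted p = 0.0517) for tyms and 0.42 (adjusted p = 0.0641) for slbp. The calls of tyms, slbp, prim1 and orc5 were lost in that fit, and mcm6, pold1 and pole2 were called. No gene was called with no term for lighting, and 5 were called in the light arrays alone. In these fits 2209 and 4142 of 28124 features were called in either direction. With all arrays, the remaining 4 of the 12, prim1, mcm3, pola2 and ccne2, were higher by 0.47 to 0.39. Between TKO and DKO larvae no gene was called (1.11% of features in either direction), and the median was 0.12. An unadjusted p of 0.05 was passed by 8 of 44 genes, a share near that of all features (5539 of 28124). Without single arrays the TKO count fell to 2 (WT 3-h or TKO 12-h array), 3 (WT 12-h), 4 (WT dark), 7 (DKO 12-h) and 8 (TKO 3-h), and was 10 or 11 without the other 3. In those fits 1758 to 6093 features were called in either direction, against 5808 with all arrays. The DKO count ranged from 1 (without the WT dark, WT 3-h, WT 12-h, DKO 3-h or DKO 12-h array) through 2 (DKO dark) to 6 (TKO dark). Where it was 1, between 1327 and 1925 features were called. Without the DKO dark array 1815 were called. Without the TKO dark array 6408 of 28124 were called, a larger share than among the 44 genes.

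The differences from WT larvae were also read at each lighting, on single pairs of arrays and with no test. The interaction model above called none of the 44 genes for a light response that differs by genotype. At 12-h light all 44 genes read higher on the TKO than on the WT array, by a median of 0.48 against -0.050 over all features. The share of all features above 0 for this pair is not given here. In the order WT below DKO below TKO read 34 of 44 (13% of features). At this lighting orc5 was above background on the TKO array alone, so its direction follows from the filter and is no support. Within the MCM ring, mcm2 read -0.91, -0.41 and 0.069 and mcm6 -0.97, -0.56 and -0.18 in WT, DKO and TKO larvae, while mcm7 read 1.09, 1.22 and 1.17. Most of these differences were under 2-fold, and 0 of 43 genes on the DKO array (3.17%) and 1 of 44 on the TKO array, orc6 at 2.23-fold (2.58%), were at least 2-fold above WT. The orc6 value is from its bright probe, the only 1 above background on these 2 arrays. Averaged over both probes, its levels lay closer, at -5.77 on the WT and -5.01 on the TKO array. At 3-h light the counts were 0 on the DKO array (2.2%) and 0 on the TKO array (1.96%). The medians there were 0.24 and 0.26, against -0.019 and -0.044 over all features.

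In darkness no gene was 2-fold above WT on the DKO array (2.41%), and 6 of 44 were on the TKO array (6.06%). Those were rpa3 (3.09-fold), gmnn (2.46-fold), gins3 (2.36-fold), gins2 (2.34-fold), slbp (2.03-fold) and dhfr (2.02-fold). Against the mean of the WT and DKO dark arrays, 5 of 44 genes were at least 2-fold higher on the TKO dark array (5.73% of features), a share that was counted after the values were seen. The differences ran from 1.70 for rpa3 to -0.40 for chaf1a, with a median of 0.21 against -0.13 over all features. No MCM gene reached 2-fold. On this measure mcm2, mcm4, mcm6 and mcm7 gave -0.16, -0.25, -0.15 and -0.14, and mcm3 and mcm5 gave 0.20 and 0.11. The genes lig1, rrm1 and uhrf1 were also below 0 (-0.16, -0.13 and -0.20). The SD over the 44 genes of the deviation from their own averages was 0.52 on the TKO dark array and 0.11 to 0.33 on the other 8.

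**Figure D4:**
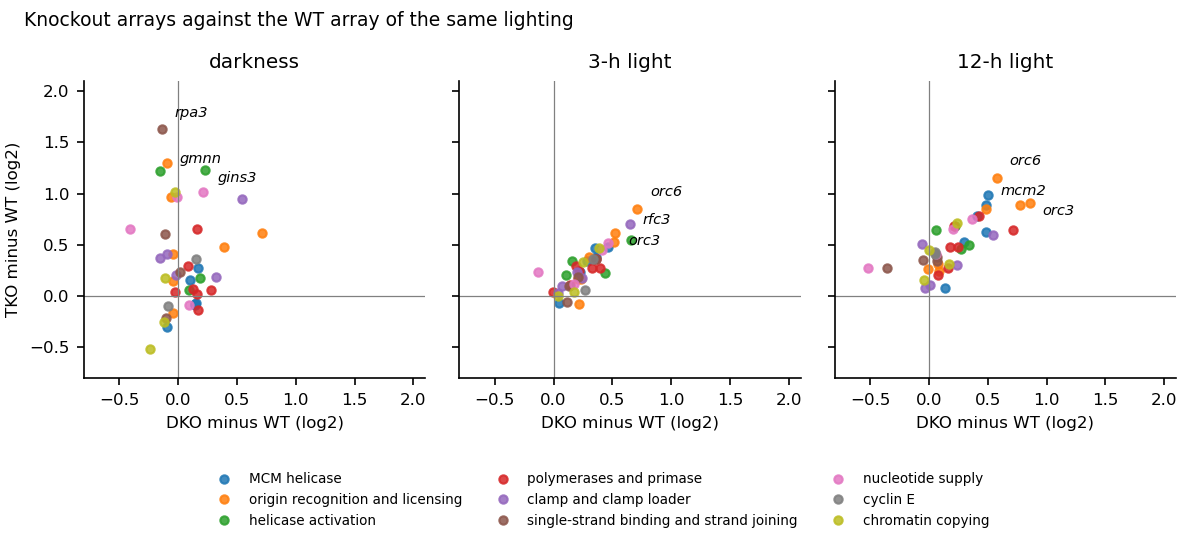
Each point is a replication gene, coloured by role, at the log2 difference of the DKO array (x axis) and of the TKO array (y axis) from the WT array of the same lighting, with dim signals raised to the lowest signal above background. Probes above background on neither array of a pair are not used, and orc5 is left out. In darkness points spread upward from rpa3 (1.63) to chaf1a (-0.52) along y and from dut (-0.41) to orc3 (0.71) along x, and at 12-h light every point lies above 0 on the y axis, with orc6 highest (1.16). Both axes share the WT array.

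Many other genes of the same machinery were also lower after light. The counts at 12-h light stand against 7.43% of all features called lower. Of 18 measured genes of the replisome and fork, 14 were lower at 12-h light and none higher (median -0.76), led by chtf8 (-1.34) and dscc1 (-1.34), subunits of the alternative clamp loader, and by the polymerase alpha adaptor wdhd1 (-1.33). All 9 further chromatin genes were lower (median -0.93), with the remodeller hells (-1.36), cdca8 (-1.31), a subunit of the chromosomal passenger complex, and the histone variant gene h2az2b (-1.10) lowest. In nucleotide supply 9 of 17 were lower (median -0.36), led by the kinases dck (-1.40) and dtymk (-1.12). One was higher, the CTP synthase ctps1b, by 1.05 ± 0.11 (SE), a 2.07-fold increase (adjusted p = 0.00496). Among kinases and checkpoint genes 8 of 15 were lower (median -0.74), with cdk1 (-1.26), cdk2 (-1.23) and cyclin A gene ccna2 (-1.14) first. Some sizes and ranks lean on the TKO dark array. There chtf8 read -1.21, against -2.40 and -2.38 on the WT and DKO dark arrays. For dck these readings were -1.19, -2.26 and -2.11, and for dtymk -1.06, -1.51 and -2.28. For cdca8 they were 0.10, -0.71 and -0.68, and for h2az2b 5.46, 4.53 and 4.46. Those of wdhd1 (-2.12, -2.06 and -1.90) and ccna2 (-1.98, -2.06 and -1.96) were not highest on it.

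The E2F and RB genes and the G1 cyclins and inhibitors had medians nearer 0. The median of nucleotide supply (-0.36) was, however, close to that of E2F and RB genes. Of 12 E2F and RB genes 6 were lower (median -0.31), a share above the 7.43% of all features. The largest differences among them were of e2f7 (-0.82), e2f3 (-0.80) and the Myb family gene mybl2b (-0.56). Of 11 G1 cyclins and inhibitors only cdkn1ca (-0.66), a Cdk inhibitor, was lower (adjusted p = 0.0414), a share near that of all features. The largest difference in this list went the other way, 0.80 for cdkn1d, and was not called. On the WT, DKO and TKO arrays cdkn1d read -2.85, -3.11 and -2.27 in darkness and -1.61, -1.89 and -2.33 at 12-h light. The median of these 11 was -0.091. All 14 measured genes of mitosis were lower (median -0.85), with the spindle checkpoint gene mad2l1 (-1.50), cyclin B gene ccnb1 (-1.10) and kinetochore gene ndc80 (-1.02) lowest. On the TKO, WT and DKO dark arrays mad2l1 read 1.62, 0.44 and 0.28 and cdkn1ca 2.05, 0.99 and 1.21. The readings of ccnb1 (-1.50, -1.68 and -1.64) and ndc80 (0.13, -0.24 and -0.016) lay closer together. At 3-h light the called falls were 11 of 18, 5 of 9, 4 of 17, 8 of 15, 1 of 12, 0 of 11 and 13 of 14 in the order replisome, chromatin, nucleotides, checkpoint, E2F, G1 and mitosis, against the 2.16% of all features named above. In TKO against WT larvae 4, 2, 2, 4, 1, 1 and 3 of them were called higher in the same order, against 9.06%. Called lower there were 1 replisome gene and 1 nucleotide supply gene, where 3261 of 28124 features were called lower.

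**Figure D5:**
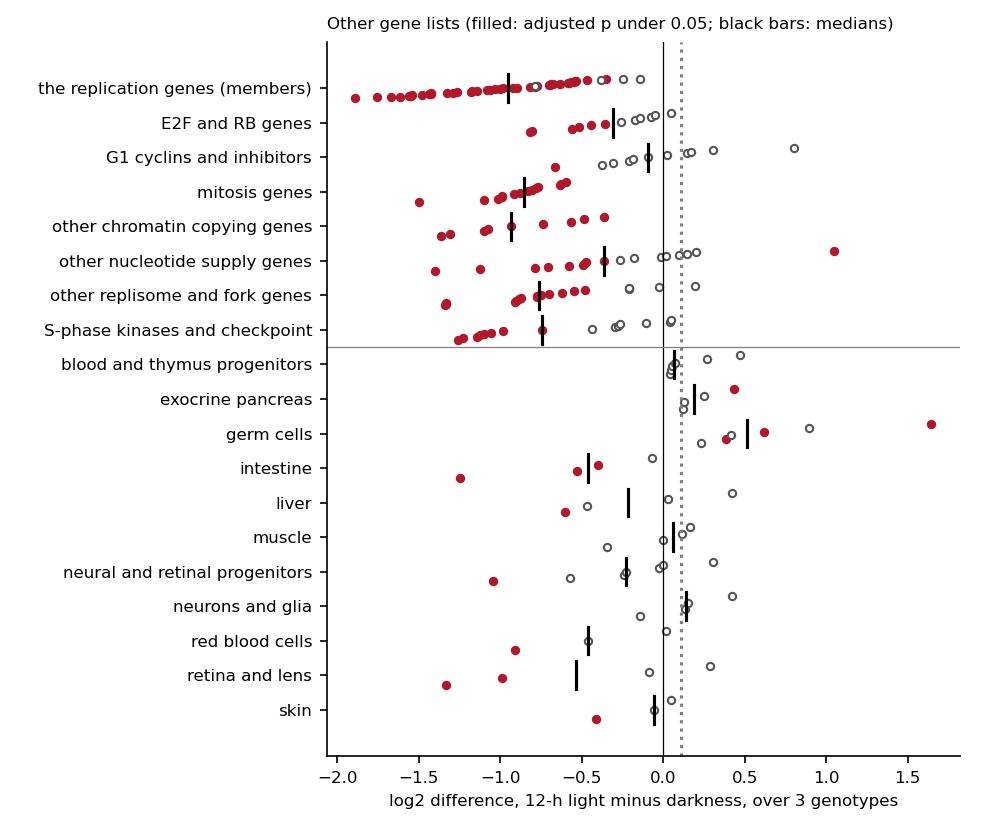
Log2 difference at 12-h light from darkness over 3 genotypes for the 44 replication genes, 7 other lists of the cell cycle (upper block) and 11 lists of tissue and progenitor markers (lower block), with 1 point per gene, filled where the adjusted p was under 0.05, and a black bar at each median; the dotted line is the median of all features, 0.11. The medians of the replication, mitosis, chromatin, replisome and checkpoint lists lie between -0.95 and -0.74. Those of nucleotide supply (-0.36), E2F and RB genes (-0.31) and G1 genes (-0.09) lie nearer 0.

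Of 49 measured markers of tissues and of progenitor cells, 9 were lower and 4 higher at 12-h light, where 7.43% and 12.8% of all features were called lower and higher. Of 7 markers of neural and retinal progenitors 1 was lower at 12-h light, rx2 (-1.04, adjusted p = 0.00319), with a list median of -0.23. Levels of rx2 stood at -2.08, -2.31 and -3.01 on the WT arrays, -2.09, -2.30 and -3.12 on the DKO arrays and -2.19, -2.39 and -3.37 on the TKO arrays. Most of its fall thus lay between 3-h and 12-h light, unlike that of most replication genes. The mean level of the list lay at -0.87 to -0.85 on the dark arrays and -1.18 to -1.07 on the 12-h arrays. None of 6 blood and thymus progenitor markers was called. Of 6 germ cell markers 3 were higher and none lower, namely nanos3 (0.62), piwil1 (0.39) and dnd1. The last was above background on only 2 of 9 arrays and read lowest on the dark arrays. Its call, which is counted in the 3 and in the 4 above, is therefore no support for a rise, and its size of change is not given. Among 4 intestinal markers 3 were lower, fabp2 most (-1.25), and the list mean was 4.93 on the TKO dark array and 3.80 to 4.32 on the other 8. Of the markers of retina and lens 2 of 4 were lower, of liver 1 of 4, of red blood cells 1 of 3 and of skin 1 of 3, none of muscle or of neurons and glia (4 each) was called, and 1 of 4 of exocrine pancreas was higher. The part of these tissues in the fall of the replication genes was not tested.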

How the data were processed

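RNA from whole zebrafish larvae of 3 genotypes under 3 lightings was hybridised to 9 arrays of 1 colour (Agilent, Cy3). Per the file headers, the spot intensity values had been background-subtracted and detrended within each array with Agilent Feature Extraction 11.5.1.1, whereas the study's methods name another program, and the deposited table holds the same intensities multiplied by 1 constant per array, whose choice is not given in the sources used here. From these, log2 intensities were scaled to each array's 75th percentile, control and outlier spots were left out, and probes well above background on at least 1 array were averaged per gene (28124 features). Of 43603 probes, 26094 were named through RefSeq. Single probes were tested over all probes in the same way. Groups were taken from the sample labels, 1 array each, so p-values measure only the spread left by the model.

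Features were tested with limma 3.58.1 in R 4.3.3, with genotype and lighting as additive terms (4 residual degrees of freedom) and, for the light response, with genotype by lit or dark (3 residual degrees of freedom). Every adjusted p is a Benjamini-Hochberg value over all features, and every unadjusted p is from the same fit. For single pairs of arrays, dim signals were raised to the lowest signal above background on their array, and no test was made. A lower bound on a fold was set against the same floor. The 51 genes and the other lists were chosen with earlier results of these data known. Named were the MCM genes and pcna, the called genes with the largest differences (up to 8 a contrast, 5 a pair of arrays and 3 a list) and the extremes of each role, and other genes were named after their values were seen. Scripts were tested on simulated data. Alternatives were other scalings, background corrections, filters, probe rules, weights, model terms and thresholds, and leaving out each array. A search of promoters for motifs was not run here. Python 3.11.15 was used with numpy 2.4.6, pandas 2.3.3 and matplotlib 3.10.9. The number of arrays limits the precision.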

Additional observations from a re-analysis of the deposited data

How the results depend on the processing

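Replicates could not be paired across conditions, because the labels give no replicate numbers and each condition has 1 array. In the light comparisons the genotype term already compares arrays within a genotype, and so within a slide. Across settings that keep all arrays, the genes called lower numbered 39 to 42 at 12-h light and 24 to 38 at 3-h light, and none was called between the lightings. Over all features, 1793 to 3481 were called lower at 12-h light and 368 to 2767 at 3-h light. At 12-h light mcm10 alone turned, to 0.0881, when the brightest probe stood for each gene. Leaving out 1 array gave 13 to 41 calls at 12-h light, 0 to 32 at 3-h light, 1 to 6 for DKO against WT and 2 to 11 for TKO against WT. Over all features the same fits called 707 to 6467, 0 to 1804, 1327 to 6408 and 1758 to 6093. Each of these fits had 1 residual degree of freedom less, and the part of each array in the loss was not tested.

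For DKO against WT, 3 calls became 7 at an adjusted p of 0.1, 6 over single probes, 5 with median scaling, 5 with normexp and quantile normalization (4 higher, 1 lower), 5 with probes above background on all arrays, 5 with the trend and robust options, 9 with array weights (8 higher, 1 lower) and 0 with no term for lighting. Over all features, 3270 were called in either direction in the main fit. In the same order these became 4724, 4822 (of 40243 probes), 3433, 4323, 3248 (of 25157), 3544, 7302 and 1974. For TKO against WT, 12 became 24 at 0.1, 20 over single probes (19 higher, 1 lower), 22 with array weights, 0 with no term for lighting and 5 in the light arrays alone. Over all features 5808 calls became 9139, 9050 (of 40243 probes), 9440, 2209 and 4142 in the same order. For TKO against DKO, 0 became 1 at 0.1, 1 with normexp and quantile normalization and 1 with the trend and robust options. There, 312 calls over all features became 647, 330 and 438. The light response gave 1 call for TKO minus WT with normexp and quantile normalization and 1 with the trend and robust options, and for TKO minus DKO 1 with each of these and 1 at 0.1. In the same order, 1075 and 1323 of all features were called for TKO minus WT, and 1505, 1572 and 955 for TKO minus DKO. The causes were not tested. In single pairs of arrays 102 differences of at least 2-fold became 225 at 1.5-fold and 22 at 3-fold, by construction.

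Over all features 3607 were called higher and 2090 lower at 12-h light, which became 2762 and 2445 with quantile normalization and 2836 and 2416 with median scaling, and in TKO against WT 2547 and 3261 became 3058 and 2379 with median scaling. The replication genes' median at 12-h light stayed between -1.04 and -0.66.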
